A study of Mus musculus with 24 samples.

Results

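The genes described here are those of the cellular response to low oxygen and of glycolysis, measured in P19 cells, an embryonal carcinoma line of the mouse whose cells resemble those of the early embryo. Of 37 genes on the list, 34 had a probe set annotated with their symbol alone, out of 18194 genes with such a probe set in the series. Each gene was read from the one of its probe sets with the highest mean signal. The 34 genes had 76 such probe sets among 45101, and 32 genes passed the filter on low signals and were tested. Car9, a carbonic anhydrase at the cell surface, stayed below that filter, with signals of 283 to 647. Gapdh, a glycolytic enzyme, was present only as a chip control and was described without a test. Bnip3l, a mitophagy receptor, was read only by probe sets shared with a pseudogene. Eno1 and Gpi1, also glycolytic enzymes, had no probe set under those symbols in the annotation used.

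The 4 groups of 3 RNA samples compared were monolayer cultures at D1 and at D2 and suspension cultures at D1 and at D2, and each RNA was hybridised to the 2 chips MOE430A and MOE430B. All groups came from the same clonal line and were grown in alpha medium with fetal bovine and calf serum. The labels state neither what D stands for, nor any inducer, oxygen level or cell density. They do not say whether the 3 replicates of a group were separate cultures, so the p-values may measure technical spread. The signals are linear MAS5 intensities, scaled so that the trimmed mean of an array lay at 1500 to 1501. Median signals ran from 510.6 to 636.7 over the MOE430A arrays and from 758.9 to 923.4 over those of MOE430B. The arrays were washed in 3 runs, and all replicates 3 were in the last of them, set apart by a later hour. The runs called first and second were told apart by wash station, 2 for the first and 1 for the second. No order in time between these 2 runs was taken. The last run used station 1. Of 8 pluripotency markers, 7 lay over the chip median on every array, while skeletal muscle and fibroblast markers had 1 of 8 each there and neuronal markers 3 of 8. In RNA from a whole culture, fewer cells of a type and less RNA per cell cannot be told apart.

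In normal oxygen the prolyl hydroxylases Egln1 and Egln3 mark the transcription factor subunit Hif1a for destruction. When oxygen falls, the protein is kept, pairs with Arnt and binds a short DNA motif beside genes of glucose uptake, glycolysis, lactate export, blood vessel growth and mitophagy. Pluripotent cells use glycolysis heavily even with oxygen present, and the inner cells of an aggregate can receive less oxygen than cells spread on a dish. Hif1a is controlled largely at the level of the protein, which arrays do not measure.

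The most visible regularity among the 32 tested genes followed the replicate number, not culture or stage. In monolayer D1, suspension D1 and monolayer D2 at least 24 of them had their highest signal in the sample numbered 2.

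Bnip3, an outer mitochondrial membrane protein that starts mitophagy and is a classical hypoxia target, showed it plainly. Its signals in replicates 1, 2 and 3 were 4682, 24827 and 8138 in monolayer D1 and 7595, 26055 and 7554 in suspension D1. They were 8457, 19065 and 9108 in monolayer D2 and 15444, 16444 and 17739 in suspension D2. Replicate 2 stood far above the other two samples in the first 3 groups, and in suspension D2 the 3 samples lay close together. The ratio of the highest to the lowest sample was 5.3 in monolayer D1, 3.45 in suspension D1, 2.25 in monolayer D2 and 1.15 in suspension D2.

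The same order of samples was seen in genes of quite different function. Ddit4, an inhibitor of mTORC1 that is induced by stress and low oxygen, read 1962, 10457 and 4308 in monolayer D1 and 5259, 12998 and 3585 in suspension D1. It read 4741, 8879 and 4877 in monolayer D2 and 11111, 11220 and 9503 in suspension D2. Again replicate 2 was the high sample of the first 3 groups, while the 3 samples of suspension D2 were all high.
Ndrg1, a stress-responsive gene of growth arrest and differentiation, read 758.5, 5190 and 1325 in monolayer D1 and 1666, 4524 and 1565 in suspension D1. It read 1738, 4119 and 1488 in monolayer D2 and 3048, 5090 and 3158 in suspension D2. Replicate 2 was the highest sample in all 4 groups, and its 6.84-fold excess over the lowest sample of monolayer D1 was the widest spread of any tested member in that group. Ankrd37, an ankyrin repeat protein and hypoxia target, read 1787, 8363 and 4744 in monolayer D1 and 2638, 11567 and 3611 in suspension D1. It read 2662, 8029 and 2763 in monolayer D2 and 6374, 6534 and 6065 in suspension D2.

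Genes of glucose uptake and of the first steps of glycolysis behaved likewise. Slc2a1, the glucose transporter GLUT1, read 8762, 23105 and 11263 in monolayer D1 and 9866, 26544 and 13782 in suspension D1. It read 13258, 20407 and 15569 in monolayer D2 and 18615, 20458 and 21581 in suspension D2. Replicate 2 exceeded both other samples in 3 groups and lay between them in suspension D2. Hk2, the hexokinase that traps glucose in the cell, read 7587, 16008 and 8665 in monolayer D1 and 10651, 17968 and 9375 in suspension D1. It read 7354, 16164 and 7296 in monolayer D2 and 12321, 13121 and 12015 in suspension D2. Here replicate 2 was highest in all 4 groups, by a small margin in suspension D2. Pfkl, a subunit of phosphofructokinase, the committed step of glycolysis, read 8887, 31354 and 9910 in monolayer D1 and 14136, 30629 and 11424 in suspension D1. It read 23507, 30223 and 19196 in monolayer D2 and 25432, 32149 and 23288 in suspension D2. Replicate 2 was the highest sample of every group, and its 4 values were close to each other while the other samples of D1 were low.

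**Figure D1:**
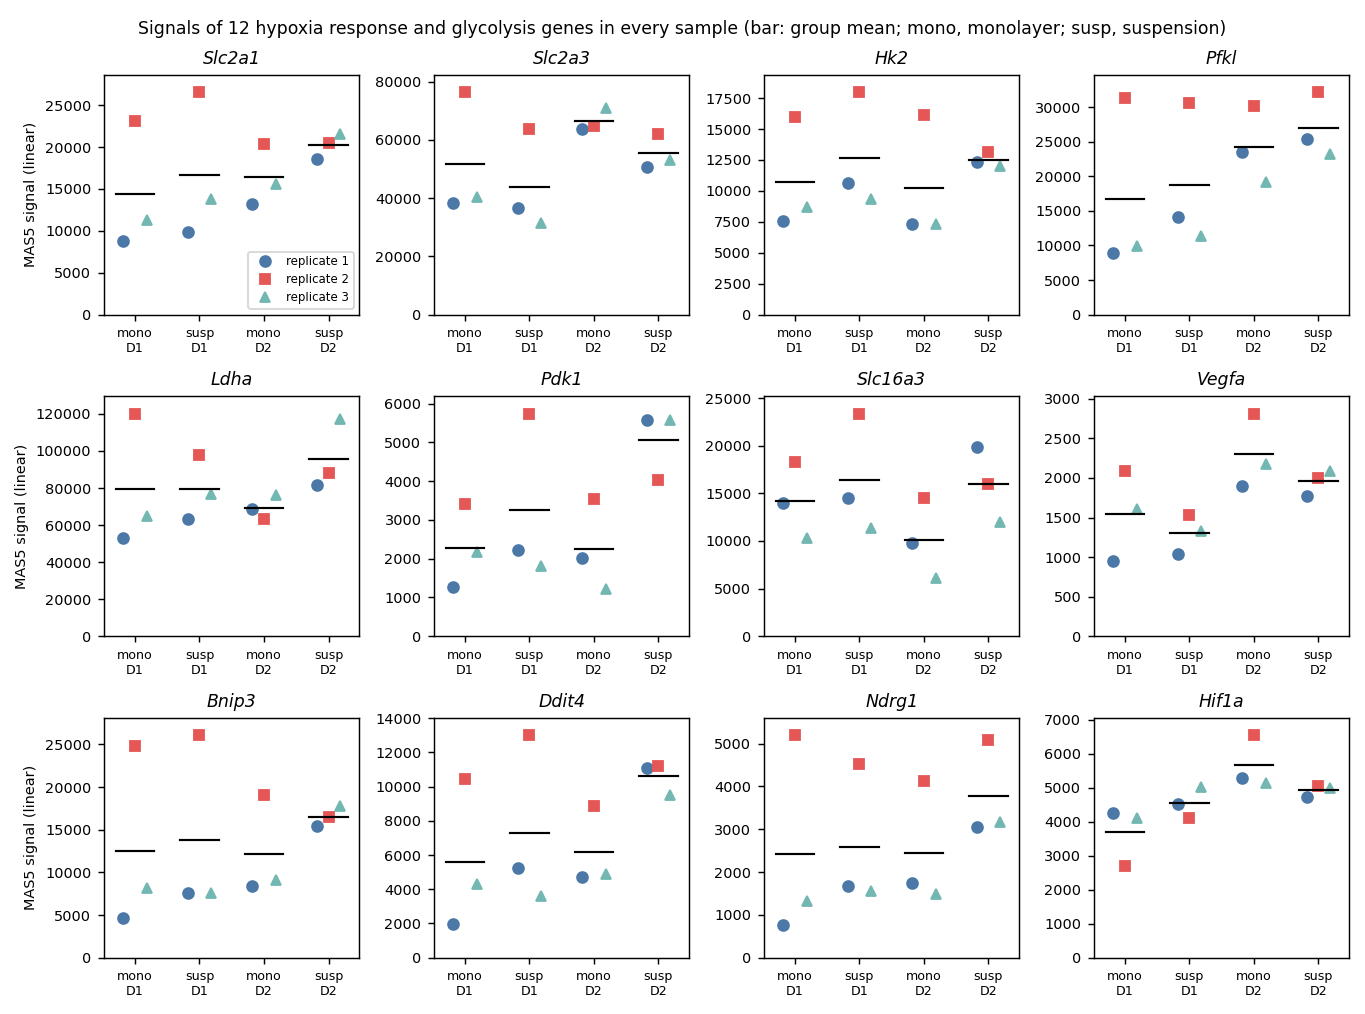
Signals of 12 of the genes in every sample, 1 panel per gene, with linear MAS5 signal on the y axis and the 4 groups on the x axis. Points are samples marked by replicate number and bars are group means; in most panels the replicate 2 point stands above the others in monolayer D1 and suspension D1, for example at 24827 and 26055 for Bnip3.

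Across the 32 genes, replicate 2 was the highest sample for 29 in monolayer D1 (35.4% of all tested probe sets), 29 in suspension D1 (31.6% of all), 24 in monolayer D2 (33% of all) and 17 in suspension D2 (33.1% of all). It was highest in monolayer D1, suspension D1 and monolayer D2 together for 23 genes, against 8.04% of all tested probe sets. On the log2 scale, replicate 2 exceeded the mean of replicates 1 and 3 by a median of 0.99 in monolayer D1, 0.90 in suspension D1, 0.48 in monolayer D2 and 0.06 in suspension D2. The same medians over all tested probe sets were near 0, at 0.02, -0.03, 0.00 and 0.03. The pattern was noticed in these data, and no test was made of it. It did not rest on the choice of probe set: of the 65 tested probe sets of these genes, 58, 57, 50 and 35 were highest in replicate 2 in monolayer D1, suspension D1, monolayer D2 and suspension D2. With replicate 3, the sample of the last wash run, set aside, replicate 2 exceeded replicate 1 for 30, 30, 27 and 25 of the 32 genes. Of all tested probe sets, 47 to 50.6% did so. In each group replicates 1 and 2 were themselves in different wash runs.

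The sample numbered 2 shared its wash run with other replicates 2 in 3 of the groups but not in suspension D2. Monolayer D1, suspension D1 and monolayer D2 had their replicates 2 in the second run, with replicate 1 of suspension D2, whereas replicate 2 of suspension D2 was in the first. In suspension D2 the second-run sample was the highest for 3 genes, the first-run sample for 17 and the last-run sample for 12. Chip controls also moved with the number. The 18S rRNA signal was highest in replicate 2 in 3 of 4 groups, and that of the B1 repeat was lowest in replicate 2 in 3 of 4 groups, on both chips. The ratio of 3-prime to 5-prime signal, a sign of RNA integrity, stayed between 0.902 and 1.33 for beta-actin and between 0.759 and 0.926 for GAPDH. The part of wash run, of these controls and of culture handling in the pattern was not tested.

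**Figure D2:**
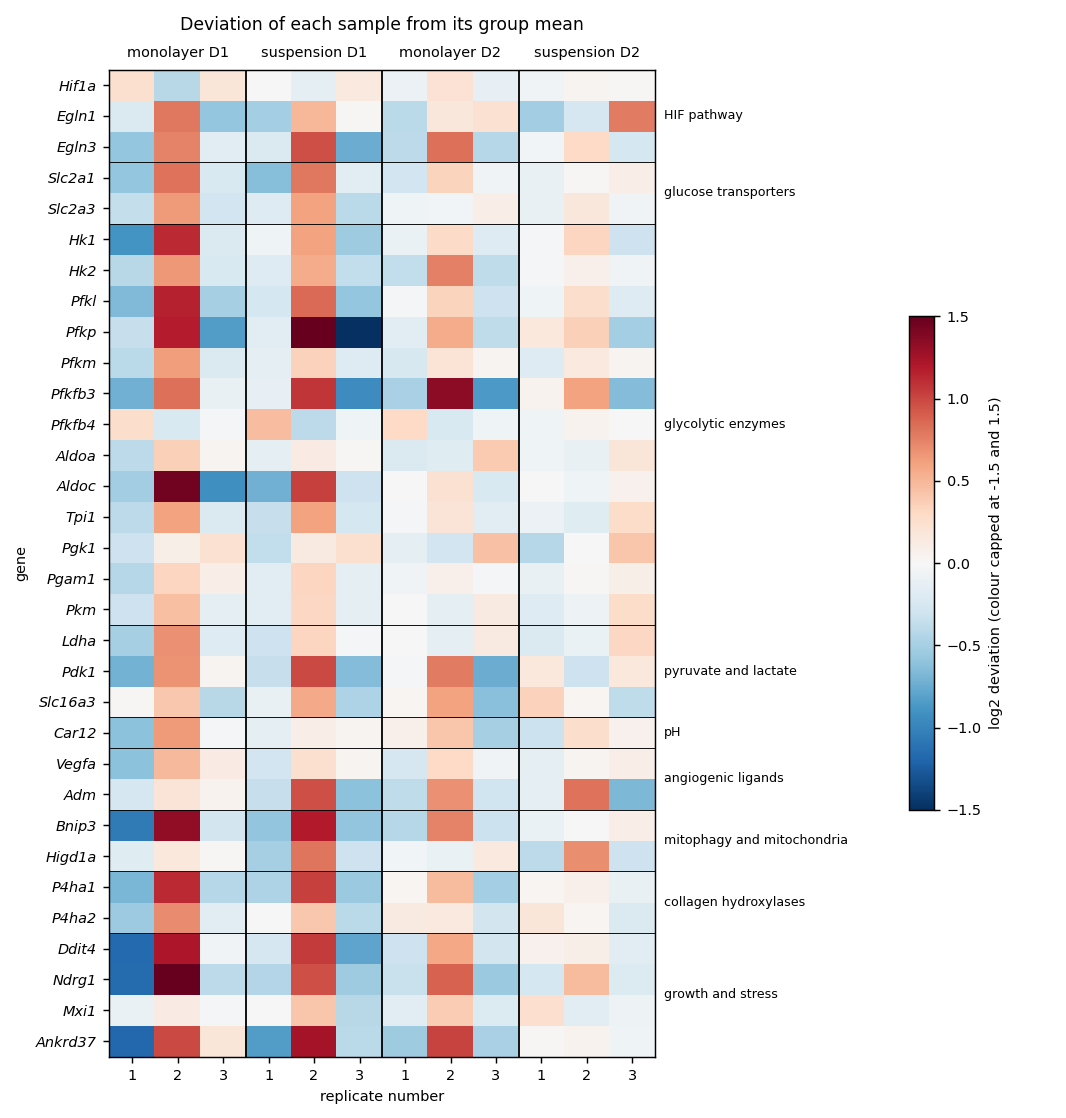
Heat map of the 32 tested genes (rows, by role) in the 12 samples (columns, by group and replicate), where colour gives the log2 deviation of a sample from the mean of its group, capped at 1.5 either way. The replicate 2 columns of monolayer D1, suspension D1 and monolayer D2 are above the group mean in most rows, and that of suspension D2 is closer to it.

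By role, the pattern was broad. It held for 4 of 4 growth and stress genes in monolayer D1, suspension D1 and monolayer D2, with median excesses of replicate 2 of 1.66, 1.51 and 1.10. The 2 collagen prolyl hydroxylases P4ha1 and P4ha2, which mature collagen in the secretory pathway, had a median excess of 1.37 in monolayer D1 and 1.07 in suspension D1. Of 13 glycolytic enzymes, 11 were highest in replicate 2 in monolayer D1, 11 in suspension D1 and 9 in monolayer D2. Both glucose transporters were so in the D1 groups, with median excesses of 1.09 and 1.04. The 3 genes that direct pyruvate to lactate and out of the cell were so in both D1 groups and in no case in suspension D2. Other members with a wide spread were Pfkp, the platelet-type phosphofructokinase subunit, at 3355, 12348 and 1277 in suspension D1, and Egln3 at 1233, 3148 and 1663 in monolayer D1. Aldoc, an aldolase, read 1638, 6581 and 1229 in monolayer D1, and Pfkfb3, which makes the activator of phosphofructokinase, read 614.5, 1470 and 325.5 in suspension D1.

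A few members departed from it. Pfkfb4, which makes and breaks that same activator, had its lowest D1 and monolayer D2 signals in replicate 2, with 3569, 2503 and 2899 in monolayer D1, 3485, 1873 and 2380 in suspension D1 and 4063, 2789 and 3135 in monolayer D2. In suspension D2 it read 3608, 3900 and 3797. Hif1a read 4261, 2686 and 4116 in monolayer D1 and 4518, 4123 and 5019 in suspension D1, so that replicate 2 was its lowest sample in both D1 groups. Pgk1, the glycolytic kinase that makes ATP from bisphosphoglycerate, was highest in replicate 2 in no group: it read 58879, 77435 and 85247 in monolayer D1, 63439, 89966 and 96810 in suspension D1, 81131, 73407 and 121551 in monolayer D2 and 72752, 97904 and 130824 in suspension D2. Its highest sample was replicate 3 in every group. This held for its brightest probe set, and 2 of its 3 tested probe sets were highest in replicate 2 in both D1 groups, with excesses of up to 0.92 on the log2 scale, so Pgk1 departed by the choice of probe set. The Gapdh control probe set of MOE430A, between 99045 and 184230, was also highest in replicate 3 in every group. The brightest shared Bnip3l probe set, which cannot separate gene from pseudogene, had the common pattern with 6604, 18408 and 4578 in monolayer D1.

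The members not yet given in full had the following values. Egln1, the main oxygen sensor among the prolyl hydroxylases, read 2749, 5570 and 2117 in monolayer D1, 2021, 4141 and 2937 in suspension D1, 1529, 2296 and 2400 in monolayer D2 and 1715, 2087 and 4314 in suspension D2. By this probe set its high sample was replicate 2 at D1 and replicate 3 at D2. The other tested probe set of Egln1 was highest in replicate 2 in monolayer D2 as well, at 1184, 2455 and 1135, and in replicate 3 in suspension D2. Adm, a peptide hormone that widens blood vessels, read 4356, 5938 and 5393 in monolayer D1, 3412, 8627 and 2821 in suspension D1, 3058, 6518 and 3247 in monolayer D2 and 3163, 6220 and 2153 in suspension D2. Replicate 2 was the highest in all 4 groups, and the 2 probe sets of Adm gave culture differences of opposite sign, from -0.22 to 0.68 on the log2 scale over both stages. Higd1a, a mitochondrial protein of cell survival in low oxygen, read 5939, 14677 and 6755 in suspension D1 and 5448, 11694 and 5774 in suspension D2, against 5544, 7026 and 6359 in monolayer D1 and 6349, 6078 and 7203 in monolayer D2. Its replicate 2 samples stood out in suspension, and its monolayer samples lay close together.

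Hk1, the hexokinase of most tissues, ranged from 617.7 to 2694 over the 12 samples, with both the highest sample and a low one, at 625.9, in monolayer D1. Pfkp read 2983, 8726 and 2087 in monolayer D1, 3998, 6647 and 3427 in monolayer D2 and 4267, 4938 and 2644 in suspension D2, which with its suspension D1 signals makes replicate 2 the highest sample in every group. Car12, a carbonic anhydrase that regulates pH outside the cell, was dim, between 360.8 and 1144. Mxi1, an antagonist of Myc, ranged from 926.1 to 2016, a narrow span among the growth and stress genes. The enzymes of the lower part of glycolysis also moved little: Pgam1, the phosphoglycerate mutase, ranged from 19656 to 34457, and Pkm, the pyruvate kinase, from 39593 to 73575. P4ha2 ranged from 802.8 to 1989, with its highest sample again in replicate 2 of monolayer D1.

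For each gene the spread over the 12 samples was divided into a share between the 4 groups, a share between replicate numbers and a rest. The median share by replicate number was 49.2% over the 32 genes and 21.2% over all tested probe sets, while the median share by group was 20.2% and 27.5%. Replicate number took more than group for 27 of the 32 genes, and for 42.3% of all tested probe sets. It took over 50% of the spread for 16 of the genes, against 13.3% of all. Egln3, the prolyl hydroxylase that is itself a HIF target, had the highest share by number at 79.1%, followed by Pfkp at 75.0%. At the other end Hif1a had 3.67% by number and 62.4% by group, and Vegfa, the main growth factor of blood vessels, had 55.4% by group.

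**Figure D3:**
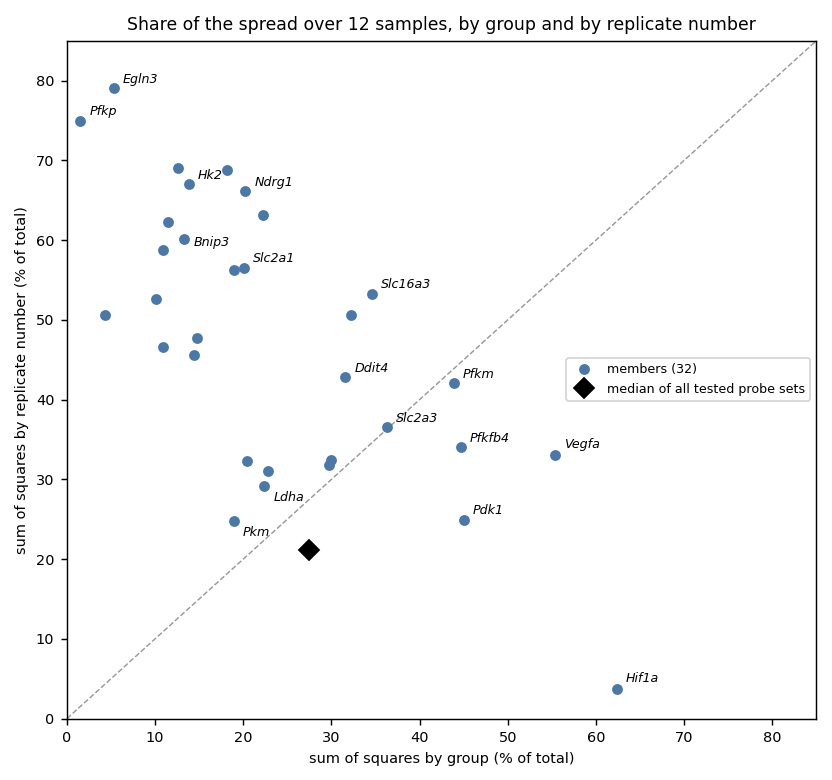
Share of the sum of squares of each gene over the 12 samples between replicate numbers (y axis, percent) against that between groups (x axis, percent), 1 point per tested gene and a diamond for the medians of all tested probe sets. Most genes lie above the diamond at 27.5% by group and 21.2% by number, and Hif1a and Vegfa lie at the right.

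The width of the groups differed as well. The ratio of the highest to the lowest of the 3 samples had a median over the genes of 2.37 in monolayer D1, 2.05 in suspension D1, 1.55 in monolayer D2 and 1.36 in suspension D2, where all tested probe sets had 1.53, 1.58, 1.52 and 1.49. This ratio was over 2 for 21, 18, 11 and 4 genes in that order, and the share of all tested probe sets over 2 was not counted. The difference in width between groups was not tested.

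Because members moved together between samples, the promoters of some that bear on the pattern are shown. They are RefSeq sequences of GRCm38.p6, from 250 bases before to 50 after the annotated start, in the direction of the gene. Capitals mark each ACGTG, a form of the core of the hypoxia response element, on either strand. CACGT is the same letters on the other strand, and CACGTG holds a copy on each strand. The form GCGTG was neither searched for nor marked. Bnip3 (chr7:138909457-138909756, minus strand) and Ankrd37 (chr8:45999801-46000100, minus strand) are shown as stress and mitophagy genes with a wide excess of replicate 2. Ldha (chr7:46845554-46845853, plus strand) and Hk2 (chr6:82774405-82774704, minus strand) are shown as enzymes of glycolysis. Pfkl (chr10:78009758-78010057, minus strand) is shown because it shared the pattern without an ACGTG match. The Pfkl sequence does hold GCGTG.
Bnip3: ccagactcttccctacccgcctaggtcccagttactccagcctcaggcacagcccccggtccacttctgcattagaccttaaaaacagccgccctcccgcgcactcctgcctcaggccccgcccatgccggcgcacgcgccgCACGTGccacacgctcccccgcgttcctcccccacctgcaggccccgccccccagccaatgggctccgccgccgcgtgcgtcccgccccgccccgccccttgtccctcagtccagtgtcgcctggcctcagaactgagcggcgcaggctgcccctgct
Ankrd37: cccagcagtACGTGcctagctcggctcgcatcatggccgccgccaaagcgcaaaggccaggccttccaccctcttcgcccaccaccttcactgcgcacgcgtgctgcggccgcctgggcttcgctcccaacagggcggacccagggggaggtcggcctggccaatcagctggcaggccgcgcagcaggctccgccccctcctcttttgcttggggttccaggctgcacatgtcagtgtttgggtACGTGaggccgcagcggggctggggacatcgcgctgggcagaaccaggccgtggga
Ldha: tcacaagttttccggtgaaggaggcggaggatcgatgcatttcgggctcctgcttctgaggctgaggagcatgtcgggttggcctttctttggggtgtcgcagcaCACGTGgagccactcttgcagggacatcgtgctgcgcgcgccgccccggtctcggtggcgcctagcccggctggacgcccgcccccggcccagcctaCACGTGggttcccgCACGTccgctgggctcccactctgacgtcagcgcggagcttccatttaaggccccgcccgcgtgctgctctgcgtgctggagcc
Hk2: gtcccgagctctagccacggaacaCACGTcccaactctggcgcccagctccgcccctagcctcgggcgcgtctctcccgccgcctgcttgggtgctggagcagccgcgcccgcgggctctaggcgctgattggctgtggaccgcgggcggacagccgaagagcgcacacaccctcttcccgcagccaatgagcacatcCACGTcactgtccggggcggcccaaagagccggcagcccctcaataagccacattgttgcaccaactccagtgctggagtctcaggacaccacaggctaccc
Pfkl: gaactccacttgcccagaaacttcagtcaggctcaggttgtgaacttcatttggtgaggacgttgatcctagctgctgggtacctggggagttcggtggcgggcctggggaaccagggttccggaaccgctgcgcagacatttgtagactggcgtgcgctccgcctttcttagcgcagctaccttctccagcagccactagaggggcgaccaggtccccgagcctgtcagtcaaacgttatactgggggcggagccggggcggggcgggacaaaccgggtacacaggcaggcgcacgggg
These promoters hold 2, 2, 5, 2 and 0 matches. Of the 37 listed genes 34 had a promoter in the table, and 20 of these (58.8%) held ACGTG on either strand in their first listed promoter, where 19.7% of 27025 genes did. At least 2 matches were present in 9 of the 34 (26.5%) and in 8.31% of all genes. The genes were listed for their part in the hypoxia response and in glycolysis, so these shares describe the list and not these samples. Promoters of the listed genes are also richer in CG dinucleotides, with a median of 21 against 7 over all genes, and the part of this in the share was not tested. A match is only a match of letters, and genes without ACGTG may hold GCGTG. Among the tested genes the median log2 excess of replicate 2 was 1.09 in monolayer D1 and 1.02 in suspension D1 for the 18 with a match and 0.82 and 0.76 for the 12 without, with ranges that overlapped widely (-0.63 to 2.17 and -0.35 to 1.76 in monolayer D1).

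The first comparison of the design asks what growth in suspension did to these genes at D1. No member passed the test: 0 of 32 had an adjusted p under 0.05 in limma, where 14 of 26516 tested probe sets passed (0.0528%). At an unadjusted p under 0.05 there were also 0 members, where 5.19% of all probe sets lay. For no gene were the groups apart, with 0 higher (4.1% of all probe sets) and 0 lower (5.43%) in suspension without overlap. With the replicate number as a block, 30 probe sets passed (0.113%) and again 0 members. This block was fitted over all 12 samples, with 1 effect per number common to the 4 groups. Same-numbered D1 samples deviated together, but over all groups the same-numbered correlations ran from 0.03 to 0.21, so the block is less well founded outside D1. The median log2 difference of the 32 genes was 0.10 and that of all probe sets -0.02, and 21 genes lay above 0 (47.25% of all probe sets). This median was 0.23, 0.08 and -0.14 within the first, second and last wash run. It was 0.394 without replicate 2 of monolayer D1, -0.139 without replicate 2 of suspension D1 and -0.14 without replicate 1 of monolayer D1, so single samples set its sign.

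Single values at D1 were small against their errors. Slc2a1 differed by 0.22 ± 0.35 (log2, SE, 3 samples a group), Bnip3 by 0.22 ± 0.54, Hk2 by 0.26 ± 0.33 and Ddit4 by 0.48 ± 0.51, each with a limma adjusted p of 0.998. The highest estimate was that of P4ha1, at 0.62 ± 0.45 (limma adjusted p = 0.984), and its second tested probe set gave -0.16. P4ha1 read 803.5, 2930 and 968.3 in monolayer and 1474, 4235 and 1385 in suspension, so that the replicate 2 samples of both cultures exceeded all others and the groups overlapped. Signals of the 18S rRNA were 18698 ± 11726 (SD, n = 3) in monolayer D1 and 41993 ± 10129 (SD, n = 3) in suspension D1 on MOE430A, with an exact permutation p of 0.1 (two-sided), the smallest that 3 against 3 samples can give. On MOE430B the 18S rRNA signals of these groups overlapped (exact permutation p = 0.2, two-sided). The beta-actin ratio on MOE430B was 1.25 to 1.33 in suspension D1 against 0.968 to 1.13 in monolayer D1, with no overlap (exact permutation p = 0.1, two-sided), and overlapped between these groups on MOE430A. The part of both controls in the values at D1 was not tested.

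At D2 the member with the lowest p and the largest difference between cultures was Pdk1, and none passed the adjusted test. Pdk1, the kinase that shuts pyruvate dehydrogenase, read 2009, 3551 and 1210 in monolayer and 5569, 4033 and 5579 in suspension. All 3 suspension samples exceeded all 3 monolayer samples. The log2 difference was 1.26 ± 0.44 (SE), with a limma adjusted p of 0.553 and an unadjusted p of 0.0125. All 4 tested probe sets of Pdk1 gave a value above 0 at D2, from 0.37 to 1.26. Slc16a3, the lactate exporter MCT4, read 9785, 14494 and 6152 in monolayer and 19904, 15971 and 12020 in suspension. Its groups overlapped, because the lowest suspension sample lay under the highest monolayer sample, and the log2 difference was 0.71 ± 0.32 (SE, limma adjusted p = 0.735). Larger estimates with wider errors were those of Pfkfb3, at 0.96 ± 0.61 (limma adjusted p = 0.827), and Ndrg1, at 0.72 ± 0.58 (limma adjusted p = 0.885). Pfkfb3 read 285.7, 1143 and 209.5 in monolayer D2 and 898.4, 1350 and 532.6 in suspension D2, so its groups overlapped, as did those of Ndrg1. The second tested probe set of Pfkfb3 gave only 0.09 at D2, so the larger estimate of this gene rested on its brightest probe set.

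Ldha, the enzyme that turns pyruvate into lactate, read 68489, 63088 and 76060 in monolayer and 81368, 87956 and 117144 in suspension. Its groups did not overlap at D2, and the log2 difference was 0.45 ± 0.26 (SE, limma adjusted p = 0.814). At D1, with 52906, 120055 and 65046 in monolayer against 63109, 97937 and 76808 in suspension, they did overlap (0.07 ± 0.26). Ddit4, with the D2 signals given above, was 0.84 ± 0.51 higher on the log2 scale in suspension (limma adjusted p = 0.821) without overlap. Tpi1, the triose phosphate isomerase, read 34631, 40590 and 31762 in monolayer and 45638, 42552 and 58490 in suspension. Every suspension sample was above every monolayer sample, by 0.45 ± 0.28 (log2, SE, limma adjusted p = 0.823), and its 3 probe sets gave 0.44 to 0.56.

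A few members lay the other way at D2. Pfkm, the muscle-type subunit of phosphofructokinase, read 5316, 7202 and 6421 in monolayer and 4156, 5286 and 4919 in suspension, with no overlap and a log2 difference of -0.39 ± 0.24 (SE, limma adjusted p = 0.823). Slc2a3, the high-affinity glucose transporter GLUT3, read 63774, 64792 and 70995 in monolayer and 50879, 62214 and 53060 in suspension. These groups did not overlap either, and the log2 difference was -0.27 ± 0.27 (SE, limma adjusted p = 0.915). All 4 probe sets of Slc2a3 gave lower values in suspension, from -0.62 to -0.27 at D2 and from -1.30 to -0.23 at D1. For Slc2a1, the other glucose transporter of the list, the 3 probe sets gave 0.03 to 0.32 at D2.

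In all, 4 genes were higher in suspension D2 without overlap (Pdk1, Ldha, Ddit4 and Tpi1), where 6.81% of all tested probe sets were. Lower without overlap were 3 (Pfkm, Slc2a3 and Hif1a), where 6.34% were. At an unadjusted p under 0.05 there were 2 members, Pdk1 and Slc16a3, where 6.68% of all probe sets lay. After adjustment 0 of 32 passed in limma, where 14 probe sets did (0.0528%). The median log2 difference was 0.17 with 23 genes above 0 (50.8% of all probe sets), against 0.01 over all probe sets. Within the wash runs it was 0.33, -0.28 and 0.36, and the second run set replicate 2 of monolayer against replicate 1 of suspension. Averaged over the stages, 0 members passed in limma (0.256% of all probe sets did) and 1, Pdk1 at 0.84 ± 0.31 (log2, SE, limma adjusted p = 0.488), had an unadjusted p under 0.05 (8.01% of all did).

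The next comparison is between the stages. Vegfa was the member with the steadiest difference. It read 946.2, 2083 and 1606 in monolayer D1 and 1904, 2811 and 2178 in monolayer D2, and 1042, 1531 and 1328 in suspension D1 and 1777, 2005 and 2087 in suspension D2. In suspension every D2 sample exceeded every D1 sample, and in monolayer replicate 2 of D1 lay among the D2 samples. The log2 difference was 0.61 ± 0.25 (SE) in monolayer (limma adjusted p = 0.554) and 0.58 ± 0.25 in suspension (limma adjusted p = 0.841). Averaged over the cultures it was 0.60 ± 0.18 (limma adjusted p = 0.224), and the second probe set of Vegfa gave 1.24.

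Hif1a read 5284, 6542 and 5146 in monolayer D2 and 4743, 5058 and 4995 in suspension D2, beside the D1 values given above. In monolayer the D2 samples all exceeded the D1 samples, by 0.63 ± 0.18 (log2, SE, limma adjusted p = 0.348), and in suspension the groups overlapped (0.12 ± 0.18). The 3 probe sets of Hif1a did not give 1 answer, with averages over the cultures from -0.06 to 0.54, so no direction is given for the gene. Slc2a3, at 38221, 76377 and 40267 in monolayer D1 and 36558, 63608 and 31584 in suspension D1, was 0.42 ± 0.19 higher at D2 on the log2 scale over both cultures (limma adjusted p = 0.472), and its 4 probe sets gave 0.42 to 1.03. Its replicate 2 sample of D1 lay above all D2 samples in both cultures. Pfkl was 0.71 ± 0.30 higher at D2 (limma adjusted p = 0.424), and of its 3 probe sets 1 gave -0.01.

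By count, monolayer had 1 gene higher at D2 without overlap, Hif1a (6.08% of all probe sets), and 0 lower (6.36%). Suspension had 3 higher (6.06%), which were Vegfa, Pfkfb4 and Aldoa, and 0 lower (5.69%). Pfkfb4 differed by 0.57 ± 0.26 there (log2, SE, limma adjusted p = 0.841) and Aldoa, the main aldolase of dividing cells, by 0.24 ± 0.23 (limma adjusted p = 0.904). For Aldoa the lowest suspension D2 signal, 87693, lay barely above the highest of suspension D1, 87443. The other tested probe sets of Aldoa overlapped between these groups. An unadjusted p under 0.05 was reached by 2 genes in monolayer (Hif1a and Vegfa, 7.98% of all probe sets), by 2 in suspension (Vegfa and Pfkfb4, 5.86%) and by 4 over both cultures (Vegfa, Hif1a, Pfkl and Slc2a3, 10.4%). After adjustment 0 of 32 passed in limma in each of the 3, where 2 probe sets passed in monolayer (0.00754%), 0 in suspension (0%) and 0 over both (0%). The call over both cultures changed when 1 sample was left out. Without replicate 2 of monolayer D1, Pfkl differed by 0.99 (limma adjusted p = 0.0382) and Vegfa by 0.72 (limma adjusted p = 0.0437), and both passed, as did 514 probe sets in all.

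The median of the 32 genes lay 0.15 higher at D2 in monolayer, with 21 above 0, and 0.26 higher in suspension, with 28 above 0, on the log2 scale. Over all probe sets these medians were -0.01 and 0.03, and 49.1 and 53.5% of all probe sets lay above 0. Within the wash runs the members' median was 0.48, -0.20 and 0.18 in monolayer and 0.61, -0.34 and 0.61 in suspension, so the second run, which holds replicate 2 of both D1 groups, had the opposite sign. Without replicate 1 of monolayer D1 the monolayer median was -0.11, and without replicate 2 it was 0.413. The B1 repeat signal was lower at D2 in every sample, with 34975 ± 4510 in monolayer D1 against 14815 ± 4710 in monolayer D2 (SD, n = 3, exact permutation p = 0.1, two-sided) on MOE430A. In suspension the beta-actin ratio on MOE430B was 1.25 to 1.33 at D1 and 1.04 to 1.12 at D2, with no overlap (exact permutation p = 0.1, two-sided). The part of both controls in the stage values was not tested.

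**Figure D4:**
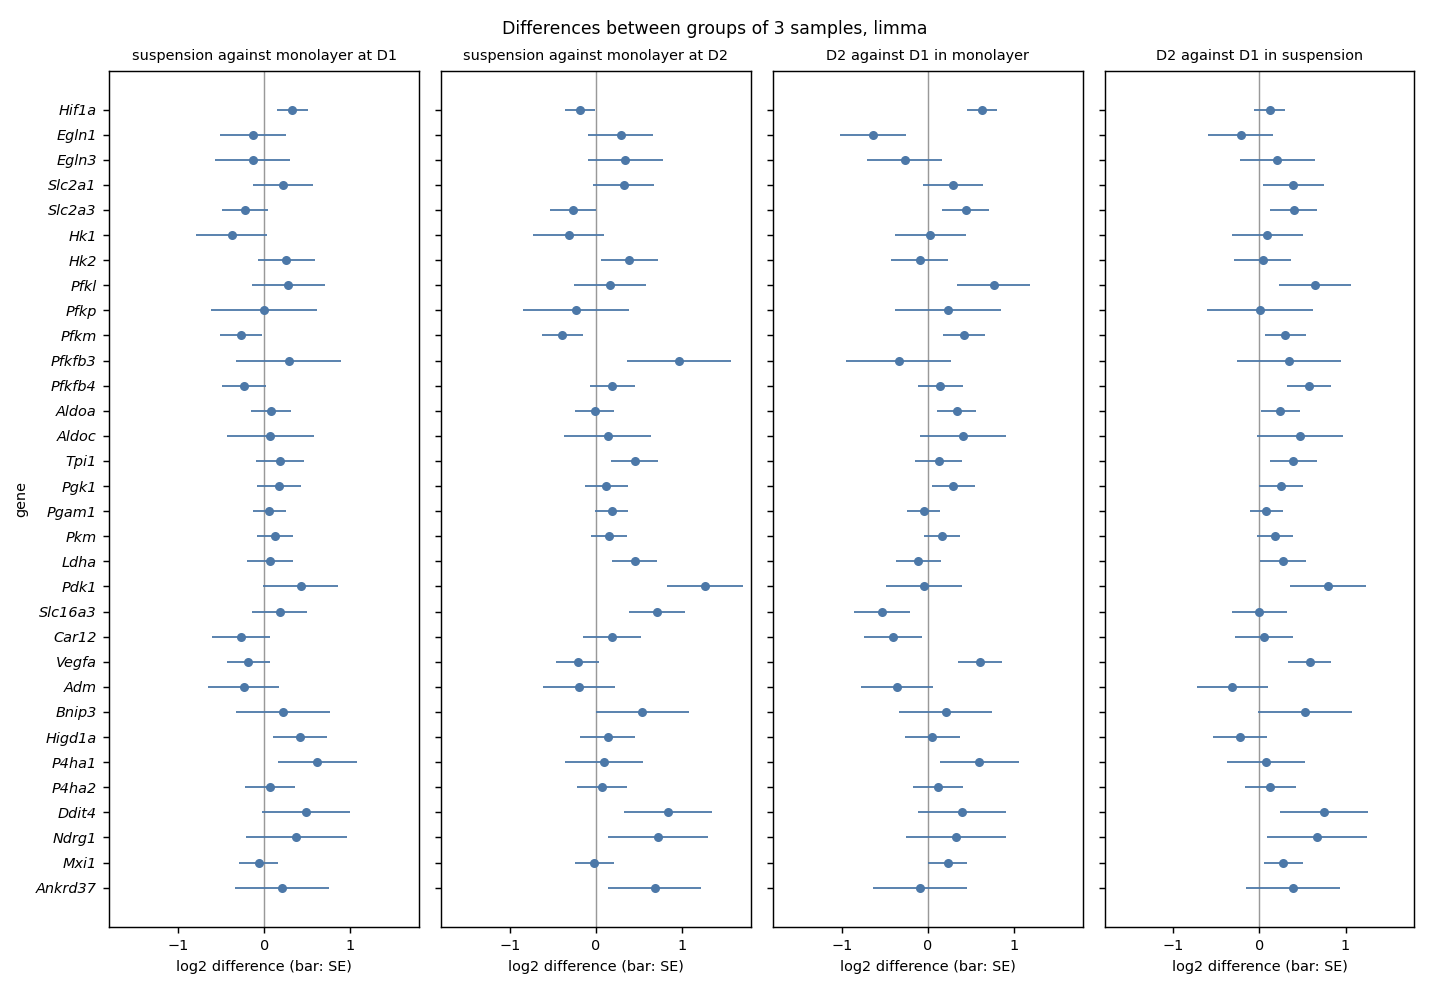
Log2 difference with its standard error (x axis) for each of the 32 tested genes (y axis, by role) in the 4 pairwise comparisons of 3 samples against 3. No member passed the adjusted test, and the value farthest from 0 is that of Pdk1, at 1.26 in suspension against monolayer at D2.

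Whether the effect of culture differed between the stages was tested as an interaction. Again 0 of 32 genes passed in limma (0% of all probe sets), and 0 had an unadjusted p under 0.05 (3.64% of all). The median interaction was 0.08 on the log2 scale, against 0.02 over all probe sets. Pdk1 had an interaction of 0.84 ± 0.62 (SE) and Slc16a3 one of 0.53 ± 0.46, both with a limma adjusted p of 1.00. The 4 tested probe sets of Pdk1 gave interactions from -1.18 to 0.84, so no direction is given for it.

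The other lists, 4 in number, set these genes among their neighbours, and none of their tested members passed the adjusted test in limma, fitted without a block, in any of the 7 comparisons. In suspension against monolayer averaged over the stages, an unadjusted p under 0.05 was reached by 1 of 13 other genes of the HIF pathway, 1 of 24 other HIF targets, 2 of 20 genes of pyruvate fate and gluconeogenesis and 0 of 9 other isoenzymes of glycolysis, shares to be read against 8.01% of all probe sets. Cited2, a HIF target whose protein limits HIF by competing for the coactivator Ep300, had the largest value of the pathway list named by the rule, at 0.74 ± 0.24 (log2, SE, limma adjusted p = 0.361). It read 1117, 1483 and 1149 in monolayer D1 and 1697, 2750 and 1734 in suspension D1, with no overlap, and 1955, 4504 and 1358 against 4514, 4400 and 3296 at D2, with overlap. Tfrc, the transferrin receptor, differed by 0.34 ± 0.11 (limma adjusted p = 0.388), and Pgd, an enzyme of the pentose phosphate pathway, by 0.35 ± 0.11 (limma adjusted p = 0.342).

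At D1 an excess of replicate 2 was seen in other HIF targets as well. Of 24 tested, 19 were highest in replicate 2 in monolayer D1 and 16 in suspension D1, with median log2 excesses of 0.66 and 0.40. In monolayer D2 and suspension D2 there were 11 and 10, with medians of 0.08 and 0.13. Over all tested probe sets, replicate 2 was highest for 35.4, 31.6, 33 and 33.1% in monolayer D1, suspension D1, monolayer D2 and suspension D2. Of the 20 genes of pyruvate fate and gluconeogenesis, 10, 8, 4 and 6 were, with medians of 0.08, 0.03, -0.24 and 0.02. Of the 9 other isoenzymes 4, 3, 3 and 2 were, with medians of -0.01, -0.21, 0.09 and 0.03. Of the 13 other pathway genes 7, 10, 8 and 6 were, with medians of 0.15, 0.42, 0.22 and 0.18. In suspension D1 and monolayer D2 these pathway medians were no lower than those of the other HIF targets. Chosen after their values were seen, the HIF targets Bhlhe40, a transcriptional repressor, and Kdm3a, a histone demethylase, gave excesses of 2.85 and 1.48 in monolayer D1 and 1.86 and 1.49 in suspension D1. The 2.85 of Bhlhe40 comes from signals of 79.1, 3098 and 1421. The first of these lies near the chip's 10th percentile of 51.0, which widens the excess. Eno2, a neuronal enolase also induced by hypoxia, gave 2.21 and 2.31. The summed signal of 8 neuronal markers ranged from 17521 to 31994 in monolayer D1, 19697 to 26949 in suspension D1, 16347 to 17723 in monolayer D2 and 16342 to 20246 in suspension D2, and its part in these values was not tested.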

How the data were processed

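Total RNA of 12 P19 samples was measured on 24 Affymetrix arrays. The labels give each sample's group and number. The deposited values are signal intensities, and per the submitters' processing notes the authors used MAS5, whose version is not given in the sources used here. Their scaling was kept. The hybridisation settings and wash runs came from files deposited beside them. The labels name no further step.

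The log2 values were taken after an offset, the chip's 10th percentile of signal, was added (51.0 on MOE430A, 108.1 on MOE430B), which understates folds of dim genes. Tested probe sets were over the chip median (599.8 and 846.4) on 3 or more of 12 arrays, which left 12689 and 13827 probe sets. Each chip was fitted with limma 3.58.1 in R 4.3.3 (1 mean per group, variance trend), and p-values were adjusted by Benjamini-Hochberg over all 26516 probe sets, with a threshold of 0.05. Control signals were compared by exact permutation tests. The fit was checked on simulated data. The number of arrays limits the precision.

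Members are the listed genes, and all were accounted for. From each further list the 4 genes with the lowest p in the culture comparison averaged over stages could be named. Members and lists were chosen with earlier results of these data known. Symbols came from the platform annotation, where probe sets with several symbols or none were not named.

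Same-numbered samples of monolayer D1 and suspension D1 deviated together from their group means, with correlations over probe sets of 0.114 to 0.214, all over 0.1. The pairing for that comparison comes from these data and from the number in the labels. In the hybridisation records, same-numbered samples of a stage also shared a name suffix across the cultures, at D1 and at D2. Whether they were grown together is not known. Alternatives were a replicate block, a wash run block, quantile normalization, other offsets, no filter, the mean of a gene's probe sets, and leaving out each sample or the last wash run. The alternatives for the replicate pattern were chosen after seeing the data.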

Additional observations from a re-analysis of the deposited data

Results flagged for a closer look

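Hif1a gave differences between the cultures of opposite sign at the 2 stages: its difference between suspension and monolayer was 0.33 ± 0.18 at D1 and -0.19 ± 0.18 at D2 on the log2 scale (SE), and every same-numbered pair followed its stage's sign. The change between the stages was -0.513 ± 0.252, and the interaction in limma had an adjusted p of 1.00. The 0.33 at D1 came from the gene's brightest probe set, and its other 2 tested probe sets lay below 0, down to -0.64, at that stage.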

How the results depend on the processing

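No member passed the adjusted test under any alternative run, except in D2 against D1 averaged over cultures, where 2 passed with the replicate block (Vegfa 0.60, limma adjusted p = 0.0244, and Pfkl 0.71, limma adjusted p = 0.0374) and 0 to 2 without 1 replicate. Of 4256 recomputed member differences, 4162 stayed within their standard error, 90 moved by more and 4 became calls. With the replicate block, all probe sets called numbered 30 and 89 in the culture comparisons at D1 and D2, 193 in D2 against D1 in monolayer, 220 and 595 in the averages over stages and over cultures, and 0 in the other comparisons. In D2 against D1 over cultures it also called Cited2 (0.92), Eloc (-0.56), Pcx (0.87) and Pck2 (1.35) of the other lists, with limma adjusted p from 0.0100 to 0.0135, and in monolayer the last 3, from 0.0238 to 0.0498. Pcx and Pck2 are named after their values were seen. Only the culture comparison at D1 had all 3 of its same-numbered correlations over 0.1. Over all groups the 18 same-numbered correlations ran from 0.03 to 0.21. All 12 samples correlated best with samples of their own number, a hint from the data. With the wash run block, D2 against D1 had 0 calls in monolayer and 25 over cultures. At D1, quantile normalization and no filter each gave 4, and without wash run 3 there were 0. At D2 there was then 1. In monolayer D2 against D1, quantile normalization gave 1, the offset at the 25th percentile 0, no filter 0 and leaving out wash run 3 gave 1. Averaged over stages, no filter gave 45 and leaving out wash run 3 gave 14. Without 1 replicate the counts ran from 0 to 13 at D1, 5 to 21 at D2, 0 to 225 in monolayer, 0 to 2 in suspension, 36 to 79 over stages and 0 to 514 over cultures, the last highest without replicate 2 of monolayer D1. The cause was not tested. The members' median share of spread by replicate number stayed between 46.2 and 49.6%. The mean of a gene's probe sets was used for differences, this share and the counts of replicate 2, with no test. A signal near the offset has only a bound on its change.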
